A study of Mus musculus with 4 samples.

Results

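The H19 and Igf2 locus is an imprinted stretch of mouse chromosome 7, and it was described here by the summits of CTCF binding within it. Members were all summits between 142525529 and 142716816 on chromosome 7 (mm10), which is 50 kb beyond the H19 and Igf2 gene records on each side. The conservative peak list placed 14 of its 42163 summits in this 191 kb window, and 4 of the 14 lay in the control region 2 to 4 kb upstream of H19. The genes described are H19, Igf2, Ins2 and Mrpl23.

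The assay was ChIP-seq, in which DNA bound by CTCF is pulled down with an antibody and sequenced. The tissue was gastrocnemius, a calf muscle, of adult female B6CASTF1/J hybrid mice aged 2 months, with no treatment. Pool E and pool F are the 2 groups. Tissue samples were combined, 2 to a pool, and 2 libraries were made per pool, which the labels describe as technical replicates. The libraries of a pool were merged before peaks were called, so no value below has a spread between replicates, and the pools carry the only biological comparison. All peaks are given on the mm10 reference. The lists do not split peaks by parental chromosome, so binding to the maternal and the paternal chromosome cannot be told apart. Sequences and CpG counts below are those of the reference, and the CAST sequence of these hybrids was not examined. Whole muscle holds several cell types, and a weaker peak in all cells cannot be told apart from a strong peak in few. Peak strength is the score that the authors deposited for each peak, has no stated scale and is used to rank peaks within a list. The read depth behind a peak was unknown.

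H19 makes a long noncoding RNA from the maternal chromosome, and Igf2 makes a fetal growth factor from the paternal chromosome. The control region between them is methylated on the paternal chromosome, and CTCF is known to bind the unmethylated maternal copy and to insulate Igf2 from enhancers that lie beyond H19. Ins2 encodes insulin and lies upstream of Igf2, and Mrpl23 encodes a protein of the mitochondrial ribosome and lies beyond H19 on the far side. CTCF binds through its zinc fingers to a long motif with a conserved core, and methylation of CpG dinucleotides in that motif can block it.

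The 4 control region summits lay on near copies of the same short sequence. They are printed here because they carry the imprinting control element, as the minus strand of GRCm38 (the strand that H19 is read from), 5′ to 3′, with the 14-base motif in capitals and 13 bases on each side. Sites are numbered 1 to 14 along chromosome 7.
Site 6, chr7:142580296-142580335: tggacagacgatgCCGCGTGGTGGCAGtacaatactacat
Site 7, chr7:142580751-142580790: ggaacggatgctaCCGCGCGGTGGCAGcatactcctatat
Site 8, chr7:142581777-142581816: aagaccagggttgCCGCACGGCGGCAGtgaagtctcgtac
Site 9, chr7:142582021-142582060: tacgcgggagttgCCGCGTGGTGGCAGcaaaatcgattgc
Sites 6 and 9 shared all 14 bases of the motif. Site 7 shared 13 of 14 with each of them, and site 8 shared 11 of 14 with sites 6 and 9 and 12 of 14 with site 7. Outside the motif a smaller part was shared, at 6 to 15 of the 30 bases before it and 8 to 16 of the 30 bases after it. The likeness of unrelated sequences was not computed. The shared letters were sought on the minus strand only, so that search could not show the direction of the 4 motifs. Their direction rests on a scan of both strands, described below, in which site 8 stayed below the threshold. Their centres were 455, 1026 and 244 bp apart.

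The strongest of the 4, site 7, is printed over its whole peak to show how the motif sits in it (chr7:142580643-142580904, minus strand of GRCm38, motif in capitals).
Site 7 peak: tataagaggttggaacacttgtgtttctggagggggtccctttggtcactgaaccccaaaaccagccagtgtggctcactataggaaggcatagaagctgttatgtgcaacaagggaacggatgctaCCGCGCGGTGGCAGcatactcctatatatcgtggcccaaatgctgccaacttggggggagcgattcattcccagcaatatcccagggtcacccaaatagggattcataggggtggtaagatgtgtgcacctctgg

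CTCF summits were called in the control region in both pools, near the middle of the strengths in pool E and below it in pool F. Nearest to H19, site 6 had its summit at 142580302, 2159 bp upstream of the H19 start, with a strength of 223.7 in the conservative list, 139.7 in pool E and 76.5 in pool F. Site 7 followed at 142580789, 2.646 kb upstream, with 269.3 in the conservative list, 181.5 in pool E and 83.4 in pool F. These are the stronger pair in pool F and stand close to the middle of the conservative list, at percentiles 46.7 and 53.1 of its strengths. Site 8 lay at 142581830, 3.687 kb upstream, with 237.4 in the conservative list, 185.6 in pool E and 53.9 in pool F. Site 9, the farthest from H19, lay at 142582029, 3.886 kb upstream, with 127.9 in the conservative list, 89.6 in pool E and 20.9 in pool F, where it was ranked but not called. Site 9 was thus the weakest of the 4 in each of these lists, at percentile 28.2 of the conservative list, and site 8 held the top place in pool E but not in pool F. The 4 sites stood at percentiles 42.1 to 63.7 of the pool E list, and the 3 called in pool F at 24.7 to 40.2 of that list. None of the 4 lay in an annotated gene.

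All 4 sites passed the irreproducible discovery rate (IDR) threshold of 0.05 in the conservative, combined and pool E lists, and 3 of 4 passed in pool F. IDR measures how well the order of peaks is kept between a pair of inputs. Across the locus 14 of 22 ranked peaks passed in the list behind the conservative one, against 41.0% of all ranked peaks in that list. In the list behind the combined one 15 of 24 passed (43.0% of all), in pool E 15 of 24 (42.0% of all) and in pool F 12 of 21 (42.2% of all). The IDR of the 4 control region sites ran from 0.000435 at site 7 to 0.00232 at site 9 in the conservative list. In pool F, site 9 had an IDR of 0.117.

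**Figure D1:**
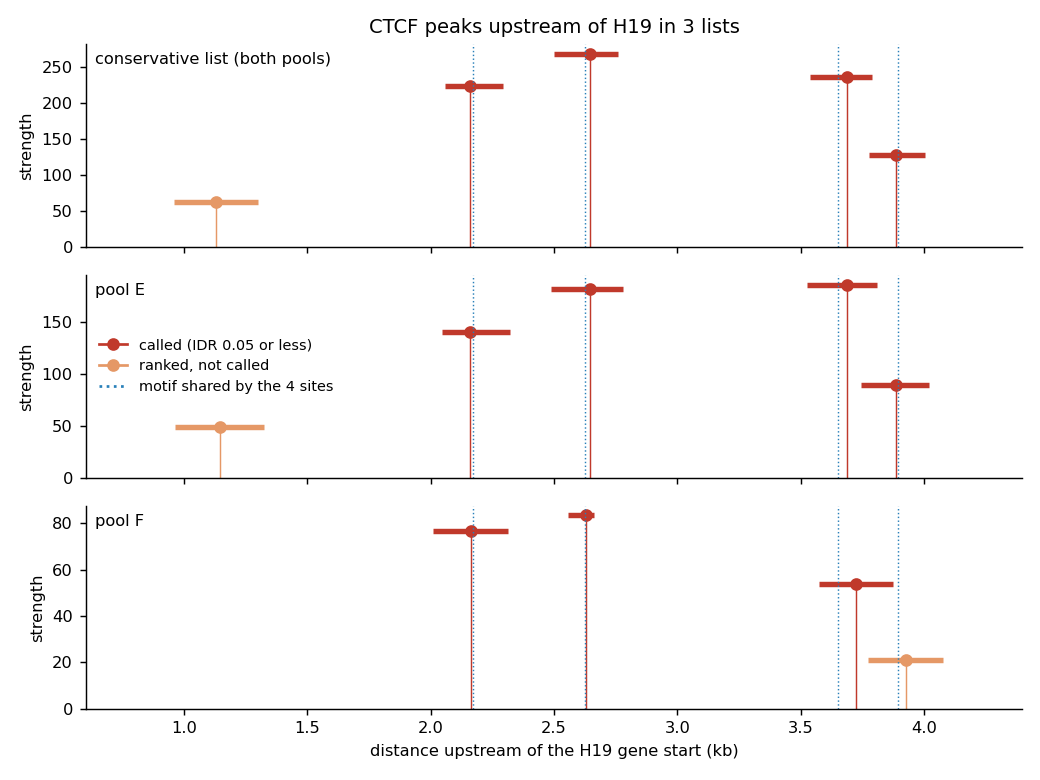
Peaks upstream of H19, with horizontal bars for the extent of each peak, dots for its summit and height for the authors' strength (red where called, orange where ranked only, dotted lines at the shared motif), in the conservative list (top), pool E (middle) and pool F (bottom). The x axis is the distance upstream of the H19 start in kb, and the y axis differs between panels because the scale of each list is its own. The 4 control region sites stand at 2.159 to 3.886 kb, and the site farthest from H19 was not called in pool F.

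Sites 8 and 9 had separate peaks in both inputs of pool E but shared a peak in the first input of pool F. In pool E their summits lay at 142581833 and 142582032, and in both inputs of that list each site had a peak of its own. The peaks of the 2 sites overlapped in both pools, at 142581668 to 142581954 and 142581889 to 142582165 in pool E, and at 142581717 to 142582020 and 142581917 to 142582220 in pool F. The first input of pool F had a summit at 142582022 behind both sites, with the same strength of 27.03. The second input of pool F had separate summits for them, at 142581827 and 142582028.

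The first input of the ranked list behind the conservative one carried the pool E strengths at these sites and the second input the pool F strengths. The log2 ratio of the first over the second was 0.87 at site 6, 1.12 at site 7, 1.78 at site 8 and 2.10 at site 9, while the median over all passing peaks was 1.03 (SD over peaks 0.39). Sites 8 and 9 stood at percentiles 96.4 and 99.5 of that ratio, and site 11, described below, at 96.1 with 1.77. The remaining sites ran from 0.46 at site 2 to 1.39 at site 5. No test applies to these ratios, since each pool gives 1 value.

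The 2 inputs inside each pool list give a further view of how far a strength can move, although the sources used here do not say how they were made. In pool E the inputs held 81.6 and 59.0 at site 6, 85.1 and 96.1 at site 7, 87.6 and 99.8 at site 8, and 47.6 and 48.1 at site 9. In pool F they held 28.5 and 45.9 at site 6, 52.0 and 31.7 at site 7, 27.0 and 29.6 at site 8, and 27.0 and 11.9 at site 9. In pool F the range of site 6 overlapped those of sites 7 and 8, while both inputs of site 7 lay above those of site 8. In pool E, site 9 lay below the other 3 in both inputs.

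**Figure D2:**
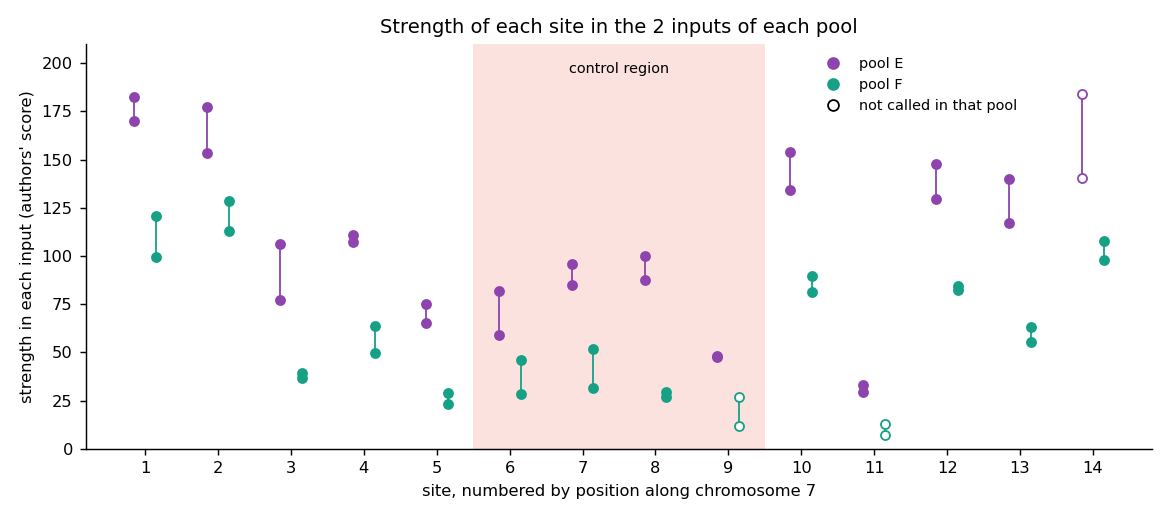
Strength of sites 1 to 14 in the 2 inputs of pool E (purple, left of each pair) and pool F (green, right), with a line joining the inputs and open dots where the site was not called in that pool. In pool E the control region sites (shaded) lie between the strong sites 1, 2, 10, 12 and 14 and the weak site 11, and site 9 is the lowest of the shaded group in pool E.

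A ranked candidate lay between the control region and H19. Its summit was at 142579272, 1.129 kb upstream of the H19 start, with a strength of 62.5 in the ranked list behind the conservative one, where its IDR was 0.109. In pool E it had 48.5 at an IDR of 0.198, with 11.6 in one input and 35.3 in the other. The ranked list of pool F held no peak there. In the ranked list behind the conservative one, however, the candidate had 48.5 in the first input and 14.9 in the second. It was called in none of the 4 lists, and it carries a match to the CTCF core consensus with 2 mismatches, printed here with the match in capitals (chr7:142579249-142579288, minus strand of GRCm38).
Candidate: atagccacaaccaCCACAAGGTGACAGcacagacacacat

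The control region sites fell outside the usual CTCF core consensus. Allowing 2 mismatches and up to 50 bp between its centre and the summit, the consensus was found at 0 of the 4 sites (95% Wilson interval 0 to 49.0%) and at 5 of the 14 locus summits (35.7%, interval 16.3 to 61.2%). It was found at 77.6% of all conservative summits and in 3.20% of windows displaced by 2000 bp. Sites 6, 7 and 9 had their best match at 3 mismatches and site 8 at 4. In the whole 2 kb control region the consensus had 0 matches with at most 2 mismatches on either strand.

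A weight matrix is more tolerant, as it scores each base by its frequency at CTCF summits. Learned on autosomes other than 7, it found a match at 3 of the 4 control region sites and at 12 of the 14 locus summits (85.7%, interval 60.1 to 96.0%), beside 88.0% of all conservative summits and 4.95% of displaced windows. The scores of sites 6, 7 and 9 were 9.97, 8.85 and 10.29 log2 units, just above the threshold of 8.46, and site 8 scored 6.36. The matrix was scanned on both strands. Within 50 bp of the summit, its best position at each of the 4 sites was the printed minus-strand motif. At site 8 a position 86 bp from the summit scored slightly higher, at 6.63, also on the minus strand and below the threshold. All conservative summits had a median of 16.88, and the 4 sites stood at percentiles 8.25 to 16.3 of those scores. Site 1 was the only other locus summit below the threshold, at 7.85.

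The form shared by the 4 sites can be written CCGCNNGGNGGCAG, where N is any base, and is made of the letters they share, so that their match to it is no result. Searched on both strands, exact matches within 50 bp of the summit occurred at 117 of all conservative summits, the 4 included (0.277%), and in 0 of 84326 displaced windows. The locus held 4 exact matches, which were the 4 sites that the form was made from. That each lies under a summit is thus also no result. In the genome 117 of 535 exact matches, the 4 included, carried a conservative summit (21.9%, interval 18.6 to 25.6%).

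CpG dinucleotides were dense at the control region summits. The 101 bp around the summits held 7 CpG at site 6, 5 at site 7, 7 at site 8 and 6 at site 9, whereas all conservative summits had a median of 1 (quartiles 1 and 3). The 14-base motif itself held 2 CpG at sites 6 and 9 and 3 at sites 7 and 8. Among all conservative summits with a matrix match, 35.8% had at least 1 CpG in the core, 5.67% at least 2 and 0.714% at least 3. Methylation was not measured in these libraries. The 10 locus summits outside the control region had a median of 2 CpG in 101 bp.

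**Figure D3:**
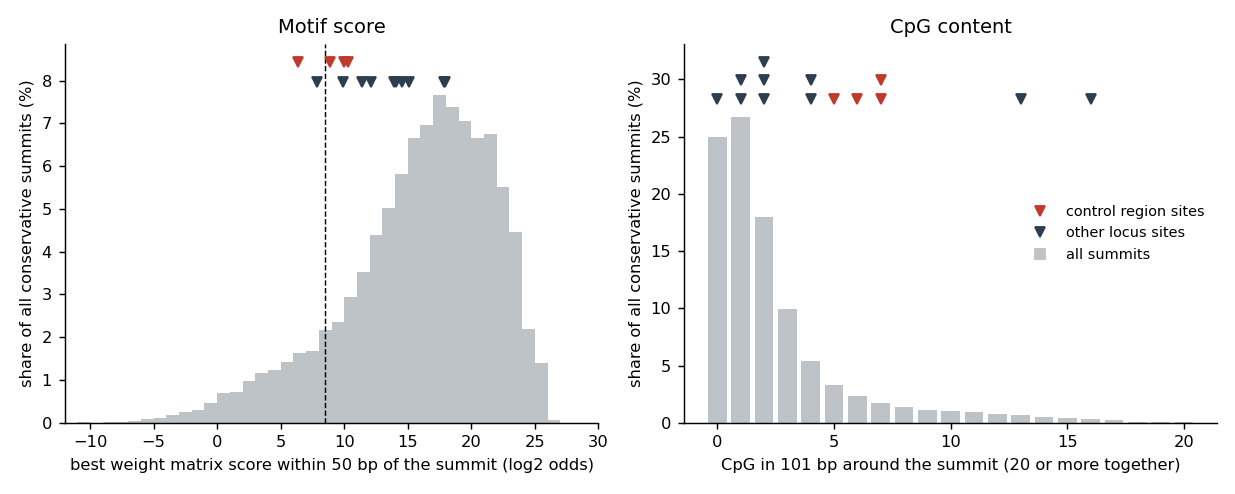
Left, best weight matrix score within 50 bp of the summit (log2 odds) for all conservative summits (grey, share in %) with the threshold of 8.46 (dashed) and the 14 locus sites (triangles). Right, CpG in the 101 bp around the summit for the same summits. The control region sites (red) score 6.36 to 10.29 and hold 5 to 7 CpG, against a median score of 16.88 and a median of 1 CpG in all summits.

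Few places in the genome held CTCF summits as close together. The 4 control region summits spanned 1727 bp, with gaps of 487, 1041 and 199 bp. Runs of 4 conservative summits within 2000 bp occurred 5 times in the list and took in 22 summits (0.0522%), while the median gap between neighbouring summits was 21399 bp. Only 0.0593% of all gaps were as short as the one between sites 8 and 9. These counts describe the list, and no test was made.

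On the far side of H19, the strongest summits of the locus lay at Mrpl23. Site 1 had its summit at 142533109, in an exon and 97 bp into the transcript Mrpl23-201, with a strength of 575.0 in the conservative list, 354.3 in pool E and 224.7 in pool F. Site 2 lay in a Mrpl23 intron at 142538094 with 574.8 in the conservative list, 333.4 in pool E and 243.0 in pool F. Both stood at percentile 96.2 of the conservative list, and which was higher differed between the pools. Site 1 had 13 CpG in 101 bp and 4 mismatches to the consensus, and site 2 had 2 CpG and 1 mismatch. Sites 2, 10 and 13 are printed to compare with the control region, since they had the highest matrix scores at Mrpl23, between H19 and Igf2, and upstream of Igf2 (GRCm38, best matrix match in capitals). Site 2 differed from the control region form CCGCNNGGNGGCAG at 1 position, site 10 at 3 and site 13 at 5.
Site 2, chr7:142538089-142538128, plus strand: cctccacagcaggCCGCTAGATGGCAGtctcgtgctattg
Site 10, chr7:142610740-142610779, plus strand: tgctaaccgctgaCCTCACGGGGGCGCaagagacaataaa
Site 13, chr7:142675843-142675882, minus strand: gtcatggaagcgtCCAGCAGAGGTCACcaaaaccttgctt

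Between Mrpl23 and H19, 3 summits lay in Nctc1, a noncoding gene read toward Mrpl23. Site 3 at 142550133 had a strength of 256.4 in the conservative list, 185.4 in pool E and 76.3 in pool F. Site 4 at 142552674 had 337.6 in the conservative list, 218.8 in pool E and 113.9 in pool F. Site 5 at 142555889, in an exon, had 188.1 in the conservative list, 138.3 in pool E and 52.8 in pool F. The middle one was the strongest in each list, and all 3 were called in both pools. Sites 3 and 5 had a consensus match, with 1 and 2 mismatches.

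H19 itself held no summit, and its nearest was site 6. From the control region to Igf2 the conservative list had a single summit. Site 10 lay 32.6 kb upstream of the H19 start, in an intron of the noncoding gene Gm33148, with a strength of 458.3 in the conservative list, 287.4 in pool E and 172.7 in pool F. It lay at percentile 78.8 of the conservative list and held 2 CpG in its core, as sites 6 and 9 did. Its consensus match had 3 mismatches and its matrix score was 14.11.

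Igf2 had 1 weak summit within it. Site 11 lay at 142659350, 139 bp into the transcript Igf2-205 and 343 bp from the start of the antisense gene Igf2os, with 84.7 in the conservative list (percentile 13.6) and 62.8 in pool E. In pool F it was ranked at 18.4 with an IDR of 0.599 and not called. It was the weakest summit of the locus in the conservative list and had the most CpG, with 16 in 101 bp. Its best matrix match within 50 bp scored 9.94, and a better one of 16.48 lay 89 bp from the summit. Pool E also called a peak at 142659560 with a strength of 22.8, whose first input had a strength of 33.3 and a summit at 142659349, as site 11 had in that list.

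Upstream of Igf2, toward Ins2, a pair of summits stood 3.541 kb apart. Site 12 at 142672340 had 444.0 in the conservative list, 279.6 in pool E and 165.1 in pool F. Site 13 at 142675881 had 375.3 in the conservative list, 259.4 in pool E and 119.0 in pool F. Site 12 was the stronger in each list and lay 5524 bp from the start of the Igf2 gene record. The summits at both sites moved by 2 bp between lists. A further peak at 142671272 was called in the combined list (57.1) and in pool E (46.9) but not in the conservative list, whose ranked list held it at 46.9 in the first input and 8.76 in the second.

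Ins2, the insulin gene, had no summit at a transcript start. The nearest was site 13, at 3652 bp from Ins2-208 and 3845 bp from Ins2-201, which starts at 142679726. The Ins2 gene record starts at 142743381 because of the long transcript Ins2-209, and site 14 at 142714871 falls within an exon of that record. Site 14 had 531.8 in the conservative list (percentile 90.6), 327.1 in pool E and 207.9 in pool F, and it was not called in pool E. There it ranked 3401 of 121209 peaks by strength, with 183.9 and 140.5 in the 2 inputs and an IDR of 0.195. Of the 3401 pool E peaks at least as strong, 1343 (39.5%) also missed the threshold, so a missing call there does not mark a weak site.

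**Figure D4:**
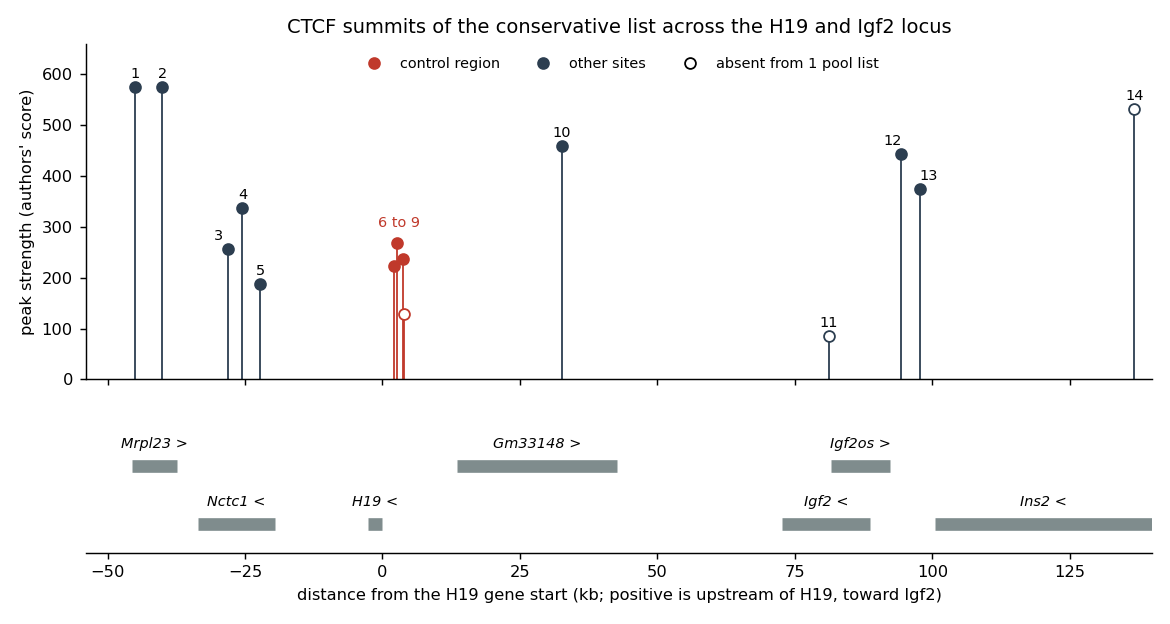
Top, strength of the 14 conservative summits by distance from the H19 start in kb, positive toward Igf2, with the control region sites in red and open dots for sites absent from 1 pool list. Bottom, gene records of GENCODE M21, with arrows for the direction of transcription. The control region sites at 2.159 to 3.886 kb have strengths of 127.9 to 269.3, and sites 1 and 2 at Mrpl23 reach 575.0 and 574.8.

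Motif direction was compared between neighbouring sites. Counting the matrix matches and site 8, which scored below the threshold, 5 motifs lay on the plus strand and 8 on the minus strand. Of the 13 neighbouring pairs 3 were convergent, with motifs facing each other, 2 were divergent and 7 shared a strand. The pair of sites 1 and 2 was not scored, because site 1 was below the threshold, at 7.85. Site 8 was counted at its printed motif although it scored lower, at 6.36, so these sites were not treated alike. The pairs of site 8 with sites 7 and 9 are among the 7 that shared a strand. The convergent pairs were sites 2 and 3, 12.04 kb apart, sites 5 and 6, 24.4 kb apart across H19, and sites 11 and 12, 12.99 kb apart. The control region motifs thus faced the plus-strand motifs in Nctc1 and turned away from site 10, 28.7 kb further toward Igf2. The same shares were not computed over the whole list, and these counts were not tested. Pairs of motifs are no measure of contact, which these data do not hold.

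Agreement between the pools was close to that of the whole list. Of the 14 sites 11 had a called summit within 100 bp in both pool lists (78.6%, interval 52.4 to 92.4%), beside 75.6% of all conservative summits. Pool E called 13 of the 14 sites (95.8% of all conservative summits) and lacked site 14. Pool F called 12 of the 14 (78.6% of all) and lacked sites 9 and 11. Over the lists, the summit of a site moved by 2 bp (sites 12 and 13) to 51 bp (site 11), and by 3, 18, 39 and 40 bp at sites 6, 7, 8 and 9. The median strength of the 14 sites was 303.4, at percentile 57.6 of the list, with 230.5 for the 4 control region sites and 409.7 for the other 10.

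Most consensus matches in the locus carried no summit. Of 69 matches with at most 2 mismatches, 6 carried a conservative summit (8.70%), beside 6.42% in the genome. The locus had 0 exact matches, and 3 of its 6 matches with 1 mismatch carried a summit, beside 24.4% in the genome. Of the 3 without a summit, 1 lay inside H19 at 142577775, 1 lay 9.705 kb upstream of H19, and 1 lay in Ins2 at 142678991.

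Set beside other imprinted domains taken with the same 50 kb flanks, the locus had more summits per length. It held 7.32 summits per 100 kb, the neighbouring Kcnq1 and Cdkn1c domain 3.37 (23 summits), the Dlk1 and Meg3 domain on chromosome 12 1.51 (6 summits), and the genome outside gaps 1.65. The consensus was present at 21 of the 23 Kcnq1 and Cdkn1c summits and at 5 of the 6 Dlk1 and Meg3 summits, beside 77.6% of all conservative summits. The exact CCGCNNGGNGGCAG form was at 0 of either, beside 0.277% of all. That form was made from sites of the H19 and Igf2 locus, and at so low a share 0 among few summits tells nothing. Each domain is 1 region, so these differences were not tested.

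CTCF near gene starts was also counted for the insulin-like growth factor (IGF) and insulin system. Within 5000 bp of the start of the gene record, 12 of 21 had a conservative summit (57.1%, interval 36.5 to 75.5%), beside 37.4% of all protein-coding genes. The strongest lay near Igf1r, the type 1 receptor for both IGF ligands (570.2), Irs2, an adaptor of the insulin receptor (519.0), and Igfbp5, which binds IGFs outside cells (514.7). Igf2 was the first listed gene without one. Within 1000 bp the share was 19.05%, beside 20.6% of all protein-coding genes, and within 20000 bp it was 76.2%, beside 65.9%. With any transcript start taken at 5000 bp it was 81.0%, beside 47.2%, and genes with more transcripts have more starts to count.

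Of imprinted genes known as a network around H19, 8 of 18 had a summit within 5000 bp (44.4%, interval 24.6 to 66.3%). The share was 26.6% of all annotated genes and 37.4% of protein-coding genes. The strongest lay near Cdkn1c, an inhibitor of the cell cycle (574.6), Sgce, which encodes a sarcoglycan (379.1), and Peg3, a zinc finger gene (280.0). Among neighbours on chromosome 7, 10 of 15 had one (66.7%, interval 41.7 to 84.8%), beside the same 26.6% and 37.4%. After Mrpl23 the strongest lay near Syt8, a synaptotagmin gene (525.9), and Tnnt3, the fast skeletal troponin T gene (481.4), and Ctsd, a lysosomal protease gene, was the first listed without one. Neighbours share peaks: the 4 control region summits count for both H19 and Mir675, the microRNA gene inside H19. The lists were small and were not tested against other genes.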

How the data were processed

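The submitters mapped CTCF in 4 libraries of mouse calf muscle. Per the labels and the notes deposited with each sample, libraries of a pool were merged, 1 control alignment served both pools, and the size range was 200 to 600 bp. For aligner and peak caller, names and versions are not given in the sources used here. The deposited lists hold a peak strength (a score without a stated scale) and, in the ranked lists, −log10 IDR values, both computed by the authors. Depth was unknown.

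Summits are the peak start plus the summit offset, 1-based. Genes came from GENCODE M21 and sequence from GRCm38. The weight matrix covered the 14-base core and 3 bases on each side, was learned from 38214 peaks in 3 rounds with a pseudocount of 0.5, and its threshold is passed by 5% of windows displaced by 2000 bp. The scans were tested on simulated data. Intervals are Wilson at 95% and cover counting error only. Python 3.11.15, numpy 2.4.6 and scipy 1.17.1 were used. The members and gene lists were chosen with earlier results of these data known. The text names every conservative summit of the locus and, of each list, the 3 genes with the strongest summit and the first without one.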

Additional observations from a re-analysis of the deposited data

How the results depend on the processing

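Of 50 alternatives, 37 left a count within 1.5 times, or a share or percentile within its interval or spread. With the stronger 50% of the conservative list the locus kept 9 summits and the control region 1, and without the flanks the locus had 6. The motif share was 85.7% with at most 3 mismatches, beside 93.9% of all conservative summits and 18.8% of displaced windows. With the weight matrix it was 85.7%, beside 88.0% and 4.95%. Each of these settings adds sites 6, 7 and 9 of the control region and sites 4, 10, 11 and 14 outside it. With at most 1 mismatch, 50% of consensus matches carried a summit. Near gene starts, the IGF and insulin list stood at 19.05% within 1000 bp, 76.2% within 20000 bp and 81.0% with any transcript start. The imprinted network stood at 16.7% and 72.2% at those distances, and the neighbours at 26.7% within 1000 bp and 86.7% with any transcript start. All annotated genes stood at 12.1% within 1000 bp, 53.4% within 20000 bp and 30.8% with any transcript start. Protein-coding genes stood at 20.6%, 65.9% and 47.2% in the same order. The search for the shared form and any transcript start were chosen after the data were seen. No paired analysis was possible because the libraries are merged in every list, and for the same reason none could be left out.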

Other observations

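The form shared by the control region sites, CCGCNNGGNGGCAG, lay under 113 other conservative summits spread over 20 chromosomes. Their median strength percentile was 72.7 (quartiles 54.6 and 90.7), while the control region sites stood at 28.2 to 53.1. In both pools 99 of them (87.6%) were called, beside 75.6% of all conservative summits. Of the 113, 95 (84.1%) also had a consensus match with at most 2 mismatches, beside 77.6% of all. A weight matrix match was present at 109 (96.5%), beside 88.0% of all. None of the 113 had another such summit within 2000 bp. The 4 control region sites do, but the form was made from them, so this is no comparison. The median CpG content of the 113 in 101 bp was 4.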
